A study of Sus scrofa with 6 samples.

Results

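The expression of 8 genes known from the oviduct, from epithelia and from motile cilia was examined in preovulatory ovarian follicles of 6 sows. The genes were OVGP1, WFDC2, EPCAM, ROPN1L, RIBC2, SPA17, UBXN10 and CFAP126. Every probe set that carries one of these names as its only gene symbol was taken, which gave 10 of the 23935 probe sets on the array without controls. The genes had been selected on their signal in Chinese Erhualian sow 1, where they had been seen to be high, so the level in that sow is described here and not tested.

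Healthy follicles over 5 mm were taken from 3 Large White sows and 3 Chinese Erhualian sows (named Chinese Taihu in the paper), and the RNA of each sow was hybridized to its own Affymetrix porcine array. All 6 sows had borne at least 2 litters, had normal cycles and were given 1000 IU of PMSG, which acts like FSH. At 80 h they were given 500 IU of hCG, which acts on the LH receptor, and they were killed 30 to 38 h later. Neither age nor the number of follicles per sow was given in the sources used here. Each breed came from its own farm, so breed and farm cannot be told apart. Follicles were dissected whole and no cell type was sorted, and fewer cells of a type and less RNA per cell cannot be told apart in such bulk samples. The values are normalized signal intensities on a linear scale, in which only arrays and not probe sets are compared with each other.

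The oviduct takes up the egg after ovulation. Its lining holds secretory cells, which release glycoproteins such as oviductin, and ciliated cells, whose beating cilia move fluid and egg. A motile cilium is built on an axoneme of microtubule doublets with inner proteins, radial spokes and dynein motors, and many of the same parts form the tail of sperm. Granulosa cells line the follicle and theca cells surround it, and both make steroid hormones.

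The array of Chinese Erhualian sow 1 stood apart from the rest. Its log2 signals had a Pearson correlation of 0.834 to 0.887 with those of the other arrays over the 19196 probe sets that exceeded a signal of 50 on at least 3 arrays, and the largest of these values was with Large White sow 3. The other arrays had 0.907 to 0.967 among themselves. The probe sets are not independent of each other. The breed comparison and the nearest patterns are therefore given with and without it.

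In Chinese Erhualian sow 1, the signal was the highest of the 6 arrays on 9 of the 10 probe sets, which covered all 8 genes. Large White sow 3 held the next highest signal on each of these 9. The other 4 sows lay close together far below, except for EPCAM. Of the 10 probe sets, 9 passed the filter on low signals, and 8 of these 9 were highest in Chinese Erhualian sow 1, against 23.5% of all 19196 tested. The same 8 were at least 8-fold above the median of the other 5 arrays there, against 0.865% of all (2.59% at 4-fold). At least 16-fold above were 7, against 0.302% of all, and 0 of 9 were at least 4-fold below, against 1.55% of all. The genes had been picked for this pattern, so these counts describe them and support nothing.

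**Figure D1:**
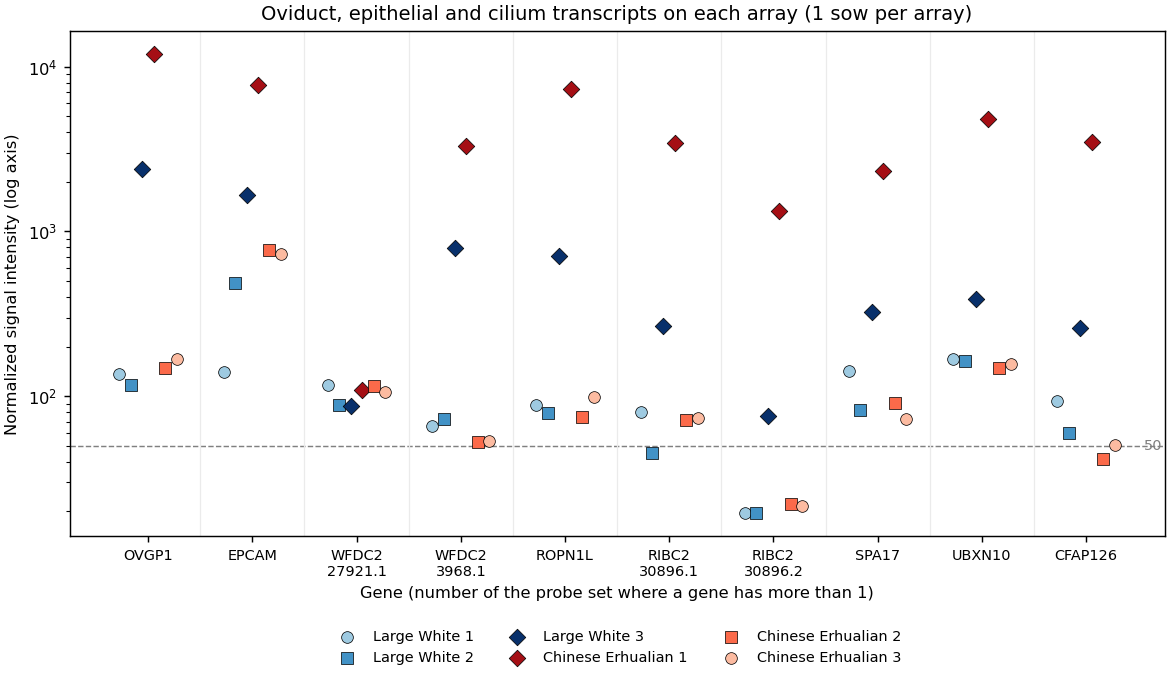
Normalized signal of the 10 probe sets on a log axis. Each point is 1 array, which is 1 sow (3 Large White in blue, 3 Chinese Erhualian in red), and the dashed line is a signal of 50. In 9 of the 10 probe sets Chinese Erhualian sow 1 is the highest and Large White sow 3 the next, while WFDC2 27921.1 lies between 87.0 and 116.1 in all sows.

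The secreted proteins are taken first. OVGP1, or oviductin, is released by secretory cells of the oviduct and binds to the zona pellucida. On its probe set, Ssc.245.1.A1_at, the 3 Large White signals were 136, 116.2 and 2382, and the 3 Chinese Erhualian signals were 11904, 148 and 167 (sows 1 to 3 in each breed, here and below). One sow of each breed thus stood apart, the other 4 spanned 116.2 to 167, and the breeds overlapped. Chinese Erhualian sow 1 had 80.6 times the median of the other 5, and Large White sow 3 had 16.8 times the median of those 4.

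WFDC2, also called HE4, is a small secreted protein with the fold of a protease inhibitor, made by epithelia of the genital tract and the airways. On Ssc.3968.1.S1_at, the 3 Large White signals were 65.6, 73.0 and 796, and the 3 Chinese Erhualian signals were 3291, 53.0 and 53.4. The sows fell as for OVGP1, with Chinese Erhualian sow 1 at 50.2 times the median of the others. On the second probe set, Ssc.27921.1.S1_at, the 3 Large White signals were 116.1, 88.8 and 87.0, and the 3 Chinese Erhualian signals were 109, 114 and 106. It was flat over the sows. The probe sets of WFDC2 thus disagree, and the high level of this gene rests on 1 of them.

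EPCAM is an adhesion molecule on the surface of most simple epithelia. On its probe set, Ssc.9272.1.S1_at, the 3 Large White signals were 140, 489 and 1653, and the 3 Chinese Erhualian signals were 7761, 768 and 727. Unlike the other members it varied among the remaining 4 sows, where the highest signal was 5.47 times the lowest. On the other 8 probe sets that were high in Chinese Erhualian sow 1, this ratio was 1.14 to 2.25. The level in Chinese Erhualian sow 1 was 10.7 times the median of the other 5, the smallest distance of the 9.

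Both ROPN1L and SPA17 carry the domain by which the regulatory subunit of protein kinase A docks on its anchors, and both are parts of cilia and sperm tails. On the probe set of ROPN1L (Ssc.10901.1.A1_at), the 3 Large White signals were 87.9, 79.3 and 709, and the 3 Chinese Erhualian signals were 7357, 74.8 and 99.0. On that of SPA17 (Ssc.26248.1.A1_at), they were 141, 81.9 and 326 for Large White, then 2323, 90.2 and 72.2 for Chinese Erhualian. Chinese Erhualian sow 1 stood at 83.6 times the median of the other sows for ROPN1L, the largest distance of the members that passed the filter, and at 25.7 times for SPA17.

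RIBC2 is a protein inside the doublet microtubules of the axoneme. On Ssc.30896.1.A1_at, the 3 Large White signals were 80.3, 44.9 and 265, and the 3 Chinese Erhualian signals were 3443, 71.8 and 74.0. Chinese Erhualian sow 1 had 46.5 times the median of the others. On the second probe set, Ssc.30896.2.S1_at, the 3 Large White signals were 19.4, 19.6 and 76.0, and the 3 Chinese Erhualian signals were 1328, 22.1 and 21.6. It exceeded 50 on 2 arrays, did not pass the filter and entered no fit. Both probe sets of RIBC2 gave the same 2 highest sows, and the second was at least 26.6-fold higher in Chinese Erhualian sow 1 than a signal of 50.

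CFAP126, also called Flattop, acts at the base of motile cilia and places them in the cell. On its probe set (Ssc.14323.1.A1_at), the 3 Large White signals were 93.0, 59.7 and 261, and the 3 Chinese Erhualian signals were 3484, 41.3 and 50.8. UBXN10 is an adaptor of the segregase VCP that is needed for cilia to form, and its signals (Ssc.12920.1.A1_at) were 169, 163 and 387 for Large White, then 4811, 149 and 156 for Chinese Erhualian. Chinese Erhualian sow 1 stood at 58.4 times the median of the others for CFAP126 and 29.6 times for UBXN10. All 5 genes of cilia and sperm tails thus had the same 2 highest sows.

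Among all 19196 probe sets ranked by the log2 distance of Chinese Erhualian sow 1 above the median of the other 5 arrays, ROPN1L held rank 2, OVGP1 rank 3, CFAP126 rank 4 and WFDC2 (3968.1) rank 8. RIBC2 held rank 13, UBXN10 rank 22, SPA17 rank 27 and EPCAM rank 104. The median distance of these 8 probe sets was 5.59 on the log2 scale, and 5.68 from the 4 arrays without Large White sow 3.

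Large White sow 3 was not the sow on which the genes were selected, although its OVGP1 and EPCAM signals were known beforehand. Among the 5 sows other than Chinese Erhualian sow 1 it was the highest on 8 of the 9 tested member probe sets, against 17% of all tested. These 8 were at least 2-fold above the median of the remaining 4 sows, against 2.47% of all. At least 4-fold above were 4 of them (OVGP1, WFDC2, ROPN1L and CFAP126), against 0.245% of all. There were 58 tested probe sets at least 16-fold above the others in Chinese Erhualian sow 1, members included, and 87.9% of them (51) had Large White sow 3 next. These shares describe 1 sow and carry no test.

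The signal of Large White sow 3 was then expressed as a percent of that in Chinese Erhualian sow 1, probe set by probe set. A percent of array signal is not a share of RNA or of tissue, since signals near background or near saturation are not proportional to the amount of transcript. The percent was 24.2 for WFDC2, 21.3 for EPCAM and 20.01 for OVGP1. In the genes of cilia and sperm tails it was lower, at 14.02 for SPA17, 9.64 for ROPN1L, 8.04 for UBXN10, 7.69 for RIBC2 and 7.49 for CFAP126. The members therefore did not keep a single ratio between these sows.

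Each probe set also has a signal in the 4 sows without high values, and its median there was subtracted from both arrays. The percent was then 22.8 for WFDC2, 19.0 for OVGP1 and 14.6 for EPCAM. For the 5 cilium genes it was 4.88 to 10.7, with a median of 5.998. OVGP1, WFDC2 and EPCAM still lay above every cilium member.

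**Figure D2:**
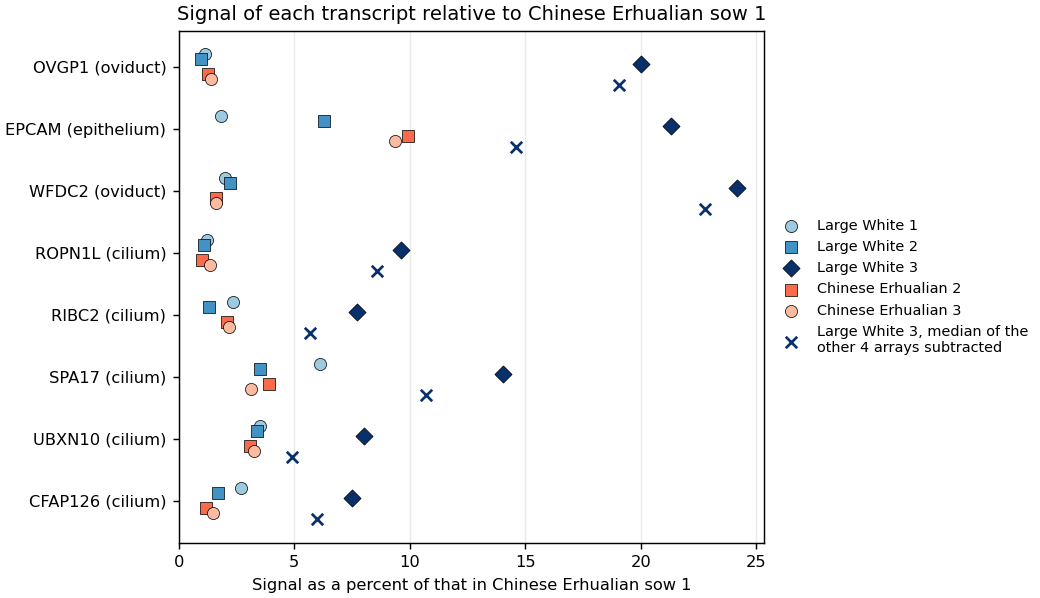
Signal of 8 probe sets in each other sow, as a percent of the signal in Chinese Erhualian sow 1. Filled symbols are arrays, and crosses are Large White sow 3 after subtraction of the median of the other 4. Large White sow 3 lies at 20.01 to 24.2% for OVGP1, EPCAM and WFDC2 and at 7.49 to 14.02% for the 5 cilium genes.

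In the remaining 4 sows the signal was 0.976 to 1.40% of that in Chinese Erhualian sow 1 for OVGP1, 1.02 to 1.35% for ROPN1L and 1.81 to 9.90% for EPCAM. The OVGP1 signals of 116.2 to 167 and the ROPN1L signals of 74.8 to 99.0 in these sows exceed the filter level of 50. Whether those transcripts were present was not tested, as the present and absent calls were not analysed here.

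Other genes of the same structures were described from lists that hold no member. These lists were chosen with earlier results of these data known, so their counts are descriptions and no separate support. Over all tested probe sets, 23.5% were highest in Chinese Erhualian sow 1, 2.59% at least 4-fold above and 1.55% at least 4-fold below. Of 169 listed genes of the motile cilium and axoneme, 22 were tested, and 19 of them had their highest signal in Chinese Erhualian sow 1. The list median there, of log2 signals centred for each gene on its median of the 6 arrays, was 2.19, and in the other sows it was -0.26 to 0.21. Over all tested probe sets it was -0.00 in this sow. At least 4-fold above the other sows were 12 of the 22, and 0 were 4-fold below.

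Among the 4 brightest genes of this list was TUBB4B, a beta-tubulin of cilia, with 5746 in Chinese Erhualian sow 1 against 976 to 2018 elsewhere. CFAP20, an axoneme protein, stood at 3515 against 924 to 1205. IFT57 and TMEM231 were not highest there, with 1047 against 477 to 1623 for IFT57 and 737 against 627 to 1159 for TMEM231. TPPP3 and FAM216B, named after a look at their values, stood at 6293 against 293 to 846 and at 3237 against 190 to 427.

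Of the list of sperm and spermatid genes, 8 were tested and 2 were highest in Chinese Erhualian sow 1, where the list median was 0.06. All 8 had signals of 53.2 to 151 on every array, near the filter level, so the list says little in either direction. ZPBP, which acts in the binding of sperm to the zona, stood at 129 against 92.2 to 145 elsewhere. AKAP3, an anchor of the sperm tail, stood at 84.6 against 59.4 to 151. PHF7, a chromatin reader of the male germ line named after a look at its values, stood at 115.7 against 53.2 to 63.8.

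Genes of epithelial junctions and keratins had the largest share of genes high in Chinese Erhualian sow 1 among the 14 lists. Of 27 tested genes, 25 were highest there and 17 were at least 4-fold above the other sows, with a list median of 2.33. For KRT8, a keratin of simple epithelia, the 3 Large White signals were 494, 517 and 1571, and the 3 Chinese Erhualian signals were 8682, 205 and 302. For SPINT2, an inhibitor of epithelial proteases, they were 217, 642 and 580 for Large White, then 4380, 174 and 238 for Chinese Erhualian. KRT8 followed the members in both sows, whereas Large White sow 2 was the next highest for SPINT2. CD9, a membrane organizer of many cell types, stood at 8673 against 945 to 4540, and LSR, a protein of tricellular junctions, at 1713 against 172 to 553.

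For the secretory cells of the oviduct and related epithelia, 15 genes were tested. Chinese Erhualian sow 1 was highest in 10 of them, 5 were at least 4-fold above the others and 1 was 4-fold below, with a list median of 1.33. SLPI, a protease inhibitor of mucosal fluids, stood at 7604 against 675 to 1048 elsewhere. CLU, a secreted chaperone, stood at 15932 against 2961 to 12208, and C3, the central complement protein, at 12106 against 1001 to 9114. PTGDS, a prostaglandin D synthase of many tissues, stood at 1823 against 1118 to 5264 and was not high. MUC1, a mucin of epithelial surfaces named after a look at its values, stood at 1360 against 54.1 to 96.4 on its brighter probe set.

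Of 9 tested markers of the ovarian surface epithelium and mesothelium, 5 were highest in Chinese Erhualian sow 1 (list median 1.38). At least 4-fold above the other sows were 4 of the 9, and 2 were 4-fold below. ALDH1A1, which makes retinoic acid, stood at 6972 against 163 to 1635 elsewhere, and CAV1, the coat protein of caveolae, at 5857 against 1496 to 2693. TCF21, a transcription factor, stood at 206 against 1004 to 2361. The other genes 4-fold above were UPK1B, at 1276 against 69.2 to 244, and WT1, at 1499 against 281 to 765. DES, which the smooth muscle list also holds, was 4-fold above as well. The other gene 4-fold below was GATA4, at 75.1 against 409 to 631, which the granulosa list also holds. The theca list also holds ALDH1A1 and TCF21. The surface epithelium list thus held genes in both directions, and its genes 4-fold below are shared with the granulosa or theca list. With every probe set of a gene in place of the brightest, its median was 0.10.

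**Figure D3:**
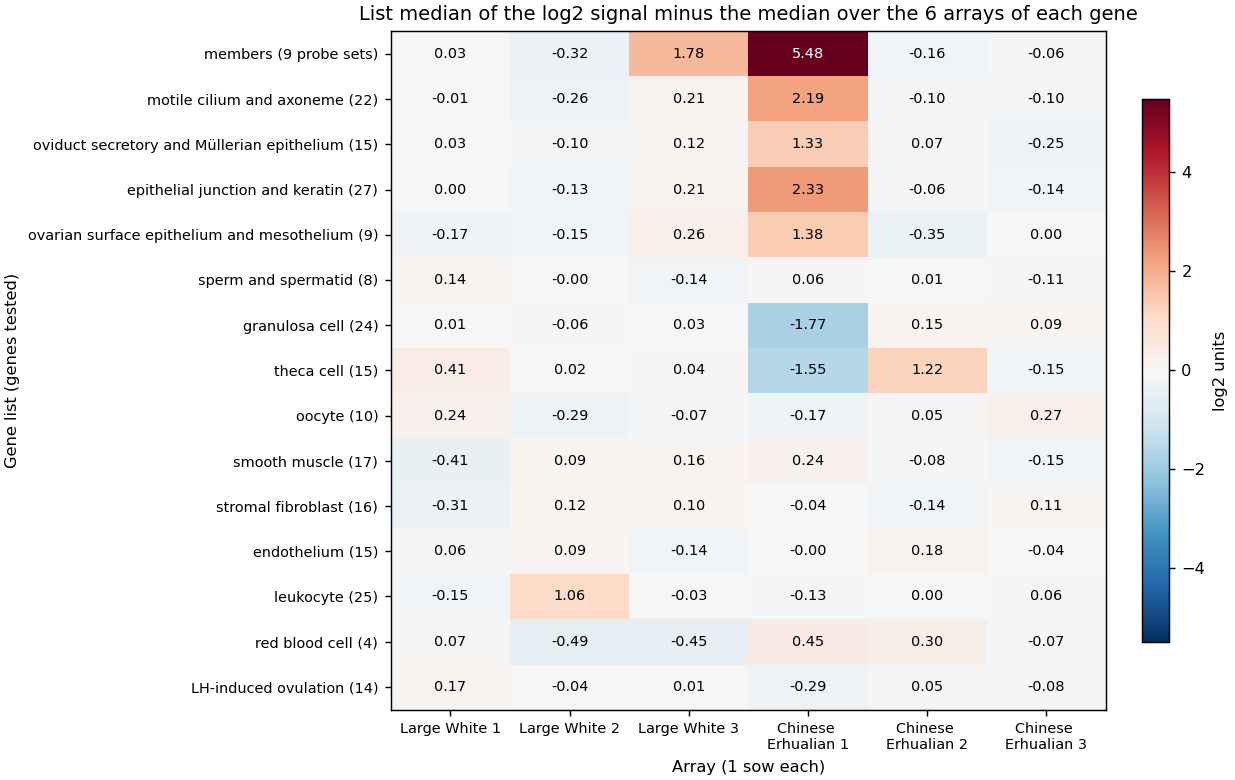
List medians by sow. Columns are the 6 sows, lines are the lists with the number of genes tested, and colour and number are the median of the log2 signal centred for each gene on its median of the 6 arrays. Chinese Erhualian sow 1 stands at 5.48 for the members, 2.33 for epithelial junction, 2.19 for motile cilium, -1.77 for granulosa cell and -1.55 for theca cell genes.

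In Large White sow 3 the list median was 0.21 for motile cilium, 0.21 for epithelial junction and 0.12 for oviduct secretory genes. That of the members was 1.78, but the members were picked as high in Chinese Erhualian sow 1 and the lists were not, so these medians are not compared. Some list genes were named here after a look at their values in Large White sow 3. Of the epithelial junction list, CDH1 stood 2.36, CLDN7 2.28, FXYD3 2.24 and KRT8 2.03 above the remaining 4 sows on the log2 scale. Of the cilium list TPPP3 stood highest, at 1.30, while CAPS stood at 0.13 and TEKT1 at -0.09. The 5 cilium members stood at 1.28 to 3.09, which is likewise not compared with the lists. In Chinese Erhualian sow 1, 13 tested cilium genes were at least 4-fold above the median of the 4 remaining sows. Large White sow 3 was the highest of the other 5 for 8 of these 13 and exceeded the remaining sows at least 2-fold for 1. Of 17 such epithelial junction genes, these counts were 12 and 9. Of 5 such oviduct secretory genes, they were 4 and 0. Over all tested probe sets they were 267 and 132 of 532.

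With the median of the remaining sows subtracted, Large White sow 3 had 0 to 8.42% of the Chinese Erhualian sow 1 signal in the 13 cilium genes (median 5.85) and 0.229 to 18.2% in the 17 epithelial junction genes (median 8.26). In the 5 oviduct secretory genes it had 0 to 7.16% (median 2.59), and over all 532 the median was 7.08%. Of the 5 cilium members, RIBC2, UBXN10 and CFAP126 lay within the range of the cilium list, and SPA17 and ROPN1L lay above it. OVGP1 and WFDC2 lay above all 5 genes of the oviduct list, which were SLPI, MUC1, TFF3, DEFB1 and PIGR. Without subtraction those 5 genes had 7.09 to 23.6%, a range that holds OVGP1 but not WFDC2.

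**Figure D4:**
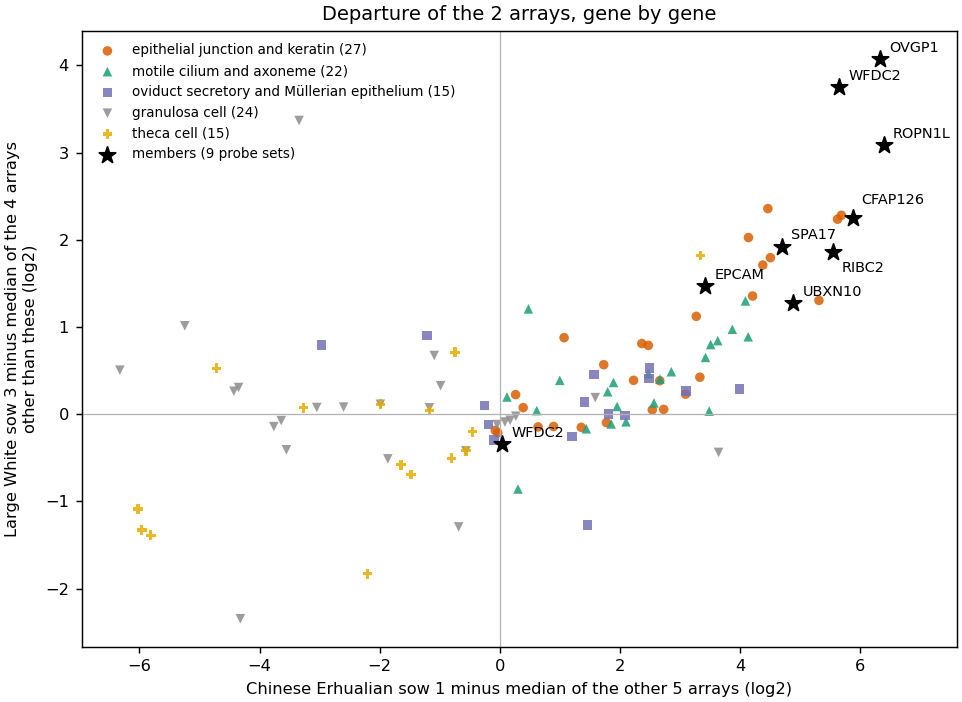
Departure of the 2 arrays for the members and the tested genes of 5 lists. The x axis is the log2 signal of Chinese Erhualian sow 1 minus the median of the other 5 arrays, and the y axis that of Large White sow 3 minus the median of the remaining 4. Both axes share those 4 arrays, and the x axis also uses Large White sow 3. Stars are the member probe sets, of which OVGP1, WFDC2 and ROPN1L lie highest at 4.07, 3.75 and 3.09.

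The follicle label was checked on genes of granulosa and theca cells, and Chinese Erhualian sow 1 went against it in part. For INHA, the alpha subunit of inhibin and a main product of granulosa cells, the 3 Large White signals were 6510, 9989 and 10684, and the 3 Chinese Erhualian signals were 446, 9602 and 8246. SERPINE2, a protease inhibitor of granulosa cells, stood at 585 in Chinese Erhualian sow 1 against 6808 to 9860 elsewhere. HSD3B1, an enzyme of progesterone synthesis, stood at 90.6 against 3536 to 10898. STAR and CYP11A1 of the theca list were named as checks of the tissue. STAR stood at 27.0 on its brighter probe set against 982 to 12624, and at 39.1 on the other against 557 to 10804. CYP11A1 stood at 63.9 against 1004 to 13520. Both also varied widely among the other sows, which limits them as a check. Some other bright genes of these cells fell less, with GJA1 at 1657 against 3374 to 3882 and APOA1 at 2656 against 5652 to 7004. CYB5A stood at 4244 against 5256 to 12689, and FDX1 at 1692 against 3110 to 14465. These transcripts of hormone-making cells were thus lowest in the sow with the highest member signals.

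The granulosa list had a median of -1.77 in Chinese Erhualian sow 1 and -0.06 to 0.15 in the others. Of its 24 tested genes, 11 were at least 4-fold below the other sows, against 1.55% of all tested probe sets, and 1 was 4-fold above. That gene was VNN2, at 869 against 62.3 to 445. INHBA, the beta A subunit of inhibin and activin, was named after a look at its values. It was also highest in this sow, at 899 against 233 to 387, or 3.00 times the median of the others. The list's signals summed to 8620 in Chinese Erhualian sow 1, against 49921 to 63313 elsewhere. The theca list had a median of -1.55 there and -0.15 to 1.22 in the others, and a summed signal of 17604 against 30002 to 89664. Of its 15 genes, 6 were at least 4-fold below and 1 above. The gene above was ALDH1A1, which the surface epithelium list also holds, and without it the summed signal was 10632 against 28367 to 88973 and the median -1.65.

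In Large White sow 3 neither list was low. Its INHA signal was the highest of the 6, its granulosa list median was 0.03 and its theca list median 0.04. High member signals occurred beside low granulosa transcripts in one sow and beside granulosa transcripts at the level of the other sows in the next. These sows are not equal cases. Large White sow 3 had 7.49 to 24.2% of the Chinese Erhualian sow 1 signal on the 8 tested member probe sets high in both. How member and granulosa levels are related was not tested. PTX3, a matrix protein that cumulus and granulosa cells make after the LH surge, stood at 65.6 in Chinese Erhualian sow 1 against 2573 to 6844 elsewhere.

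The summed signal of the epithelial junction list ranged over 7898 to 12186 among Large White and over 5359 to 56374 among Chinese Erhualian sows. That of the motile cilium list was 6713 to 8813 and 6519 to 32201, and that of the oviduct secretory list 11985 to 28789 and 15110 to 46090. The highest of each was Chinese Erhualian sow 1. For Large White sow 3 the sums were 12186, 8813 and 16595, of which the first 2 were the next highest of the 6. How much of the member signal came from tissue other than follicle was not tested. FOXJ1 and PAX8, which define ciliated and oviduct cells, were not analysed here.

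Markers of the connective, vascular and other cells of the sample gave list medians nearer to 0, over genes that lay in both directions. The list median in Chinese Erhualian sow 1 was 0.24 for 17 smooth muscle genes, -0.04 for 16 stromal fibroblast genes, -0.00 for 15 endothelial genes, -0.13 for 25 leukocyte genes and -0.17 for 10 oocyte genes. It was -0.29 for 14 genes of LH-induced ovulation and 0.45 for 4 red blood cell genes. At least 4-fold above the other sows were 3 of the 16 stromal genes and 2 of the 17 smooth muscle genes, beside the 2.59% of all. At least 4-fold below were 3 of the 14 ovulation genes and 1 of the 10 oocyte genes, beside the 1.55% of all. Those 3 ovulation genes are also held by the granulosa or theca list. ACTA2, an actin of smooth muscle cells, stood at 8013 against 8386 to 10610 elsewhere, and DCN, a proteoglycan of fibroblasts, at 10401 against 8074 to 12015.

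The stromal and smooth muscle genes that departed most were named after a look at their values. The 3 stromal genes above 4-fold were DPT and LUM, which organize collagen fibrils, and ASPN, a proteoglycan related to DCN. DPT stood at 3389 against 149 to 242 elsewhere, LUM at 2359 against 214 to 623, and ASPN at 452 against 22.3 to 76.3. The smooth muscle genes were the intermediate filament proteins SYNM, at 838 against 113 to 355, and DES, at 853 against 119 to 402. Below the other sows were the chemokine CXCL12, at 544 against 1132 to 2061, and the collagen COL5A1, at 697 against 1688 to 2793.

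The ratio of the 3 prime to the 5 prime signal of GAPDH, a measure of RNA integrity, was 1.85 in Chinese Erhualian sow 1, the highest of the 6, and 1.21 to 1.73 in the others. In Large White sow 3 it was 1.60. For actin the ratio was 2.10 in Chinese Erhualian sow 1, within the range of 1.497 to 2.66 of the others. The part of RNA quality in the member signals was not tested.

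The probe sets with 1 symbol that lay nearest to the mean pattern of the 9 tested member probe sets were ranked by the root mean square distance of the centred log2 signals over the 6 arrays. Among 9085 candidates the 10 nearest were LOC396905, HOXA3, FAM84A, CELA1, GPX6, ESRP1, FXYD3, TEX9, CDH1 and KRT19, at distances of 0.23 to 0.42. The members themselves lay at 0.33 (SPA17) to 0.86 (EPCAM), apart from the flat WFDC2 probe set at 1.86. Of the 10, ESRP1, FXYD3, CDH1 and KRT19 belong to the epithelial junction and keratin list.

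HOXA3 is a homeobox factor that sets position along the body axis, and its 3 Large White signals were 51.0, 43.8 and 166 and its 3 Chinese Erhualian signals 1359, 64.3 and 47.3. ESRP1, a splicing factor of epithelial cells, stood at 1182 in Chinese Erhualian sow 1 against 41.4 to 178 elsewhere, and CDH1, the cadherin of epithelial junctions, at 4834 against 106 to 1034. All 10 had Large White sow 3 as the next highest sow. They were chosen for nearness to the member pattern, which holds that order, so the order is no separate observation. Over the 5 arrays without Chinese Erhualian sow 1 the nearest were FXYD3, LOC396905, HOXA3, CELA1 and ESRP1, at distances of 0.19 to 0.30. All 5 were also among the 10 nearest over 6 arrays, which share these arrays.

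The study compared the breeds, and the members were traced in that comparison. They had been picked as high on an array of this comparison, that of a Chinese Erhualian sow. On the probe sets that were high there, this choice raises both the mean of that breed and the spread within it. For the members, the fit on all 6 arrays is therefore a description, and its p-values cannot decide on a breed difference. In the fit on all 6 arrays (limma, 2-sided, Benjamini-Hochberg over 19196 probe sets), 0 of the 9 member probe sets had an adjusted p below 0.05, against 0.0208% of all (4 probe sets, all lower in Chinese Erhualian sows). At an unadjusted p of at most 0.05 there were also 0 of 9, against 3.86% of all. The arrays of the breeds overlapped on all 9, and they did not overlap on 9.1% of all tested probe sets.

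Every tested member probe set had a higher mean log2 signal in Chinese Erhualian sows, by 0.19 to 1.75, with a median of 0.99 beside 0.00 over all tested probe sets. The difference was 0.99 (SE 2.0) for OVGP1, 1.15 (SE 1.89) for ROPN1L and 1.75 (SE 1.22) for EPCAM, with an adjusted p of 0.993 each by limma. The error thus exceeded the difference for OVGP1 and ROPN1L. Both values include the array on which the genes were picked, so they describe the members and do not test a breed difference. On the linear scale, OVGP1 was 878 ± 1303 (SD, n = 3) in Large White and 4073 ± 6782 (SD, n = 3) in Chinese Erhualian sows. UBXN10 was 239 ± 127 and 1705 ± 2690. With 3 arrays per breed, the smallest 2-sided p that exact permutation allows is 0.1.

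Without Chinese Erhualian sow 1, on which the genes had been selected, the direction turned on 7 of the 9 probe sets. The median difference was then -0.95, with a range of -1.55 to 0.63. OVGP1 was at -1.09 (SE 1.33), WFDC2 (3968.1) at -1.55 (SE 1.10) and CFAP126 at -1.30 (SE 0.61), and the adjusted p was 0.9996 for all 9 by limma. EPCAM and the flat WFDC2 probe set stayed above 0, at 0.63 (SE 0.97) and 0.19 (SE 0.20). At an adjusted p below 0.05 there were 0 of 9, against 0.0104% of all, and at an unadjusted p of at most 0.05 there were 0, against 3.66% of all.

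Without Large White sow 3 as well, 5 of 9 were higher and 4 lower in Chinese Erhualian sows, with a median of 0.04. The difference was 0.32 (SE 0.21) for OVGP1, 0.04 (SE 0.23) for ROPN1L and 1.51 (SE 0.63) for EPCAM (limma adjusted p = 0.998 for each, with 2 sows per breed). At an adjusted p below 0.05 there were 0 of 9, against 0% of all, and at an unadjusted p of at most 0.05 there were 0, against 4.25% of all. In the fits without Chinese Erhualian sow 1, a breed difference in these transcripts was not detectable with this number of sows. For 7 of the 9 probe sets the sign of the mean difference turned when Chinese Erhualian sow 1 alone was left out. EPCAM and the flat WFDC2 probe set were above 0 with either array or both left out.

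**Figure D5:**
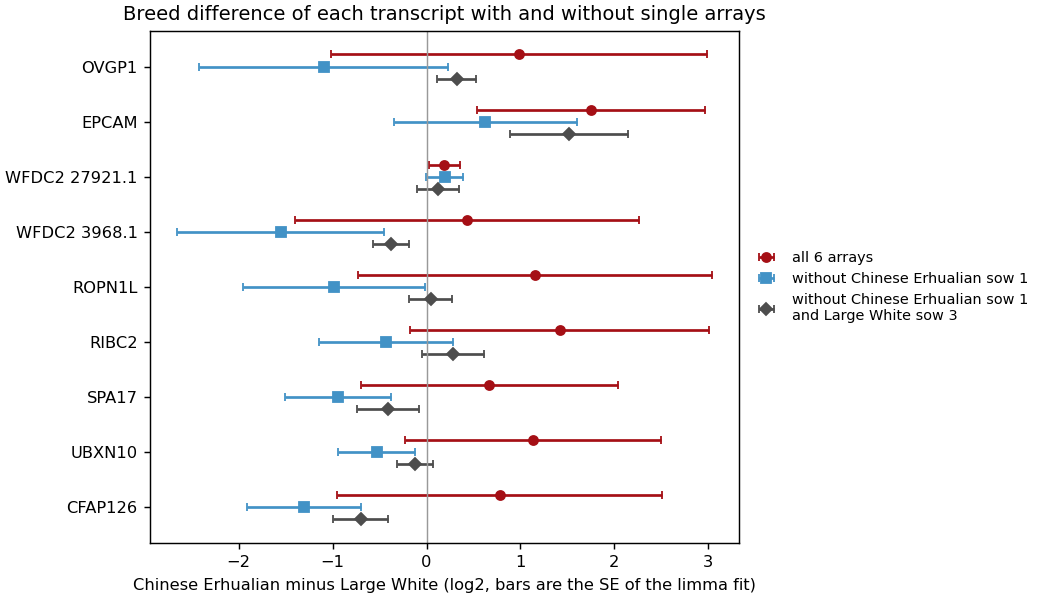
Breed difference of the 9 tested member probe sets, Chinese Erhualian minus Large White on the log2 scale, with the SE of the limma fit as bars (3 sows per breed, 2 Chinese Erhualian sows without sow 1, 2 sows per breed without both). With all arrays every difference lies above 0, and without Chinese Erhualian sow 1 it lies below 0 on 7 of 9.

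The lists of related genes gave no call in the breed fit either. Among 22 motile cilium, 27 epithelial junction and 15 oviduct secretory genes, 0 had an adjusted p below 0.05 by limma with all arrays, against 0.0208% of all. At an unadjusted p of at most 0.05 there were also 0, against 3.86% of all. Many of these genes were at least 4-fold above the other sows in Chinese Erhualian sow 1, which raises the spread within that breed. These counts therefore cannot decide on a breed difference. The list medians of the breed difference were 0.61, 0.52 and 0.38 with all arrays and -0.06, -0.19 and -0.02 without Chinese Erhualian sow 1. Without that sow the list medians thus lay between -0.19 and -0.02, beside -0.005 over all tested probe sets. The member median was then -0.95, so the lists did not turn as the members did.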

How the data were processed

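RNA (5 µg) of each of 6 sows was hybridized to 1 Affymetrix porcine array, and the labels gave the breed. The deposited values are signal intensities on a linear scale. The authors made them with MAS5 (version 2.3.1 in the submitters' processing notes), scaled each array and applied the invariant set method of dChip.

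For the present analysis, 188 control probe sets were dropped, values below 1 were raised to 1, and log2 was taken. Probe sets above 50 on at least 3 arrays entered limma 3.58.1 (R 4.3.3) with breed and a variance trend, 2-sided. The fit was checked on simulated data with independent normal noise and no outlying array. That check thus does not cover an array that stands apart, as that of Chinese Erhualian sow 1 does. Descriptions and figures were made in Python 3.11.15 (pandas 2.3.3, matplotlib 3.10.9).

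Names came from the annotation of the array, in which 10069 probe sets had 1 symbol, 198 several and 13668 none. A listed gene was represented by its brightest probe set. The members and the 14 lists were chosen with earlier results of these data known. Genes were named from the 4 brightest of a list, the nearest patterns and the members, and any other is marked where it stands. TFF3, DEFB1, PIGR, VNN2, UPK1B, WT1 and GATA4 were named to complete a count. Alternatives covered scaling, filter, floor, test and left-out arrays. Replicates are separate sows, and their number limits the precision.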

Additional observations from a re-analysis of the deposited data

How the results depend on the processing

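No alternative gave a member probe set an adjusted p below 0.05 (lowest 0.708). Over all probe sets, the 4 breed calls at adjusted p became 11 with array weights, 0 with a replicate block, 0 with the methods' t-test, 0 without both high arrays, 4 with a floor of 50 (1 higher and 3 lower, in place of 0 and 4), and 2 to 4 with 1 array left out. At unadjusted p, 741 became 1303 with array weights and 373 (without Large White sow 2) to 1225 (without Chinese Erhualian sow 2) with 1 array left out. With 1 array left out, the breed difference (log2) ranged from -1.09 to 2.40 for OVGP1, -1.55 to 1.60 for WFDC2 (3968.1), -0.99 to 2.32 for ROPN1L, -0.43 to 2.36 for RIBC2, -0.95 to 1.56 for SPA17, -0.53 to 1.98 for UBXN10, -1.30 to 1.89 for CFAP126 and -0.95 to 1.98 for the member median. EPCAM (0.63 to 2.64) and WFDC2 (27921.1, 0.11 to 0.32) stayed above 0. The lowest value of those that turned was without Chinese Erhualian sow 1. WFDC2 (3968.1) also turned without Large White sow 1 (-0.20) and sow 2 (-0.12). Without both high arrays it was -0.38 for WFDC2 (3968.1), -0.41 for SPA17, -0.12 for UBXN10 and -0.70 for CFAP126. With every probe set of a gene, list medians in Chinese Erhualian sow 1 became 1.89 for motile cilium, 0.10 for surface epithelium, -2.45 for granulosa and -0.46 for ovulation genes. Leaving out both arrays, the subtraction of the 4-sow median, the distance from 4 arrays and the theca list without ALDH1A1 were chosen after seeing the data. The causes were not tested.

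Deviations from the breed mean correlated at -0.17, -0.14 and 0.27 for sows 1, 2 and 3 of both breeds. The largest value, 0.51, was between Large White sow 1 and Chinese Erhualian sow 2. With 3 sows per breed, such values cannot show whether equal sow numbers pair the breeds. The replicate block gave 719 probe sets at unadjusted p, and the methods' t-test gave 846.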
